A study of Pimephales promelas with 28 samples.

Results

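On this array of fathead minnow transcripts, many probes were designed to contigs, stretches of transcript sequence assembled from short expressed-sequence reads. Each such probe is named by a cluster number and a contig number. FJU.7.C1, for example, is contig 1 of cluster 7. The 121 probes described here were chosen by their own detection on these arrays. Each was well above background, by the scanner software's flag, on at least 14 of 28 arrays, and its cluster kept at least 4 contigs after that filter. They fell into 24 clusters and came from 11246 contig probes in 9211 clusters, of 15208 probes in all. Because detection chose the members, the number detected is a description and supports nothing.

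As background, contigs of one assembly cluster are grouped by the assembly without being joined. They may be alleles, splice forms, copies of a duplicated gene or separate pieces of one transcript. Pieces of one transcript share a promoter and splice forms may do so, whereas duplicated genes, which are common in fishes, can be controlled apart from each other. Phenanthrene is a polycyclic aromatic hydrocarbon found in oil and combustion residues, and the liver is the main organ in which vertebrates metabolise such compounds.

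All arrays carried total RNA of liver from female fathead minnow (Pimephales promelas) labelled as sexually regressed, hybridised in one colour with Cy3. Control arrays were labelled with no agent and 0 ng per L, and exposed arrays with phenanthrene at 29 ng per L. There were 4 control and 5 exposed arrays at 24 h, 5 of each kind at 48 h, and 5 control and 4 exposed arrays at 72 h. Age and strain are not given in the sources used here. Nothing in the labels says that each array held a separate fish, so the tests measure only the spread between these arrays. The files pair no contig with a gene, so the labelled tissue could not be checked against marker genes and the contigs are called by their design names.

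The 75th percentile of the processed signal, which scaled each array, ran from 135 to 1253 intensity units, and 5127 to 12278 probes were well above background on an array. Exposed 24 h replicate 3 had the fewest such probes. Exposed 48 h replicate 1 and exposed 72 h replicate 4 had 201 and 498 spots marked as non-uniform, against at most 13 on any other array. The median log2 signal of their bright-corner control spots was 17.9 and 19.0, against 10.1 to 11.8 on the other arrays. These 3 arrays were treated as doubtful, and several of the results, though not all, are also given without them. The arrays lay on 5 slides and were scanned on 2 days. Scan day 1 held 8 arrays, all at 48 h.

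The 24 clusters held 143 contigs on the array, of which 121 became members and 22 did not. In 12 clusters every contig was a member. The largest were FJU.582 with 9 of 9 contigs, FJU.1387 with 9 of 14, FJU.610 with 8 of 11, FJU.146 with 7 of 7 and FJU.487 with 7 of 9. The members of lowest detection, FJU.582.C37 and FJU.2069.C6, were well above background on 14 arrays. The contig nearest outside the limit was FJU.3071.C8, on 13 arrays. On all 28 arrays, 58 members were detected, which is 47.9% of the members against 49.2% of all detected contig probes.

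A second probe existed for 8 of the contigs, under a design name that ends in _ms, an ending that the files do not define. Only 1 probe of each of these contigs became a member. For FJU.1037.C5 the _ms probe was well above background on 23 arrays and the other probe on 1. For FJU.1037.C13 the _ms probe was so on 25 arrays and the other on 6. The reverse held for the remaining 6, where the _ms probe was above background on 0 to 8 arrays and the other on 26 to 28. FJU.1037.C5 and FJU.1037.C13 were therefore read from a different kind of probe than the rest of the members.

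Signals are given as the log2 of the processed signal minus the log2 of the array's 75th percentile. A probe's signal includes its own binding strength, so the difference between probes is not a difference in transcript amount. The mean signals of the members ran from -4.71 for FJU.3071.C2 to 9.46 for FJU.146.C14, with a median of -0.59 against -0.82 for the other detected contigs. At or above 4 stood 16 members, or 13.2%, against 5.5% of the other detected contigs. Every cluster, those of the brightest 6 members included, held a member with a mean signal below 0. FJU.146 had FJU.146.C14 at 9.46, FJU.146.C6 at 9.17 and FJU.146.C8 at 6.98, beside FJU.146.C4 at -4.65. FJU.610 ran from FJU.610.C4 at 9.05 to FJU.610.C19 at -3.85. The span of signals inside a cluster had a median of 6.86 log2 units and was narrowest in FJU.71 at 1.54.

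Within groups the members varied about as much as other contigs. The standard deviation of a member around its group means had a median of 0.73 log2 units, against 0.74 for the other detected contigs. The steadiest was FJU.71.C2 at 0.22. The most variable was FJU.7.C1 at 2.88, the 35th of 8266 detected contigs in that order. After it came FJU.147.C9 at 2.50, FJU.541.C8 at 2.40, FJU.146.C9 at 2.27, FJU.541.C11 at 2.11, FJU.7.C22 at 2.02 and FJU.12.C2 at 2.0.

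The first question was whether contigs of one cluster rose and fell together from array to array. For each of the 277 pairs of members within a cluster, Pearson's r was taken over the 28 arrays after the 6 group means had been removed. All 30727646 pairs of detected contigs from different clusters served as the background. These correlations are descriptions, since pairs share contigs and all share the same arrays.

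Sharing a cluster of this size went with little co-variation. The median r was 0.06 for the member pairs and 0.01 for the pairs from different clusters. An r of 0.5 or more was found for 24 member pairs, or 8.66%, against 6.01% of the background. Negative values made up 44.4% of the member pairs and 48.6% of the background. From the 5th to the 95th percentile the member pairs ran from -0.44 to 0.60 and the background from -0.48 to 0.53.

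Contigs of smaller clusters were correlated more often. In clusters with 2 detected contigs the median r over 729 pairs was 0.28, and 28.0% reached 0.5. In clusters with 3 it was 0.17 over 224 pairs, and 20.1% did. The 129 pairs formed by an ordinary and an _ms probe of one contig, both detected, had a median of 0.29, with 26.4% at 0.5 or more. These 258 probes were dim, at a median signal of -1.37, and the files do not say whether both kinds read the same strand. Even 2 probes of one contig were thus often only weakly correlated. The order of the kinds of pair was the same in the control arrays alone, with medians of 0.05 for members, 0.17 for clusters of 3 and 0.29 for clusters of 2. In the exposed arrays alone these were 0.06, 0.16 and 0.30.

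**Figure D1:**
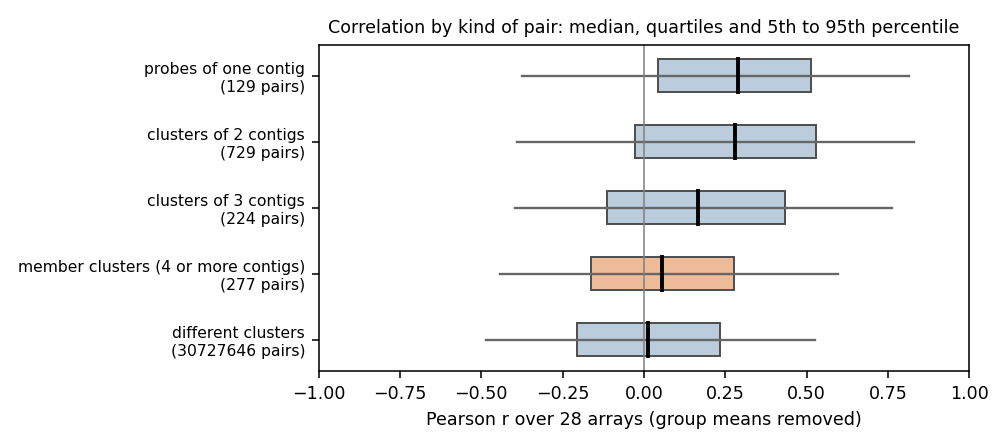
Pearson r over 28 arrays with group means removed (x axis), for 5 kinds of probe pair (y axis, with the number of pairs). Black line: median; box: quartiles; grey line: 5th to 95th percentile. The member pairs (orange) lie close to the pairs from different clusters, with medians of 0.06 and 0.01, while clusters of 2 contigs have a median of 0.28.

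Pairs whose design names carried the same tag (1 or 1rc, not defined in the files) had a median r of 0.08 over 170 pairs, with 17 at 0.5 or more. The remaining pairs, with different tags, had a median of -0.02, and 7 of them were at 0.5 or more. Pairs of like brightness reached 0.5 more often. Of the 98 pairs less than 2 log2 units apart in mean signal 12 did, of the 79 pairs from 2 to 4 apart 8 did, and of the 100 pairs further apart 4 did. The median r in turn was 0.09, -0.0009 and 0.04, without a steady trend. These counts have no background of pairs from different clusters beside them.

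By cluster, a pair at 0.5 or more occurred in 15 of the 24, a pair at -0.5 or less in 7, both in 4 and neither in 6. Clusters held from 6 to 36 pairs, and those with more pairs had more occasions to hold such a pair. Among pairs from different clusters 6.01% reached 0.5. No expected number of clusters was worked out, so these counts are descriptions. The median r was negative in 9 clusters and at least 0.3 in 3, namely FJU.7 (0.49), FJU.4411 (0.46) and FJU.1037 (0.34). No pair was negative in FJU.7, FJU.4411 and FJU.3071. Without the doubtful arrays the median of FJU.1037 was 0.15, while those of FJU.7 and FJU.4411 were 0.43 and 0.52. The median of FJU.146 was 0.19 with those arrays and 0.41 without them, and that of FJU.3071 was 0.22 and 0.40.

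**Figure D2:**
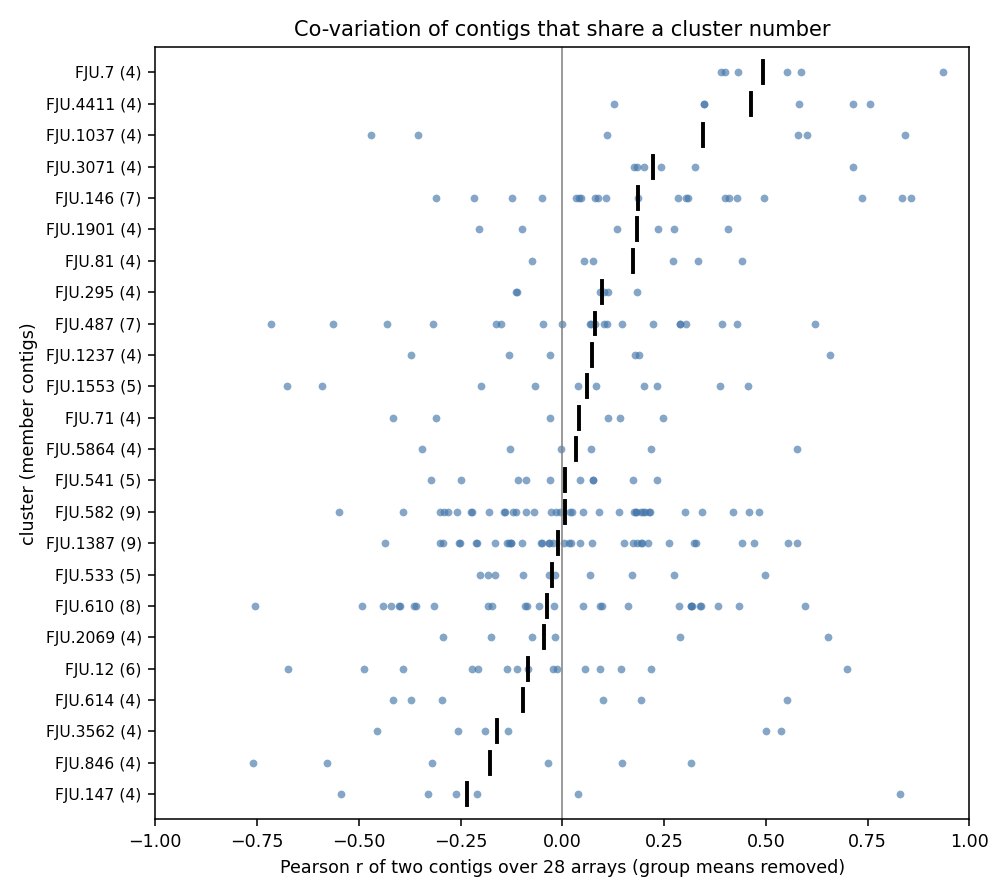
Pearson r over 28 arrays with group means removed (x axis) for each pair of member contigs (points), by cluster with its number of members in brackets (y axis). Black bars are cluster medians. FJU.7 and FJU.4411 lie wholly above 0, while 7 clusters have a pair at -0.5 or less.

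FJU.7 had 4 members. FJU.7.C1 was lowest at -2.38 on control 48 h replicate 2 and highest at 8.15 on exposed 48 h replicate 3. FJU.7.C22 was lowest and highest on the same arrays, at -1.92 and 7.52. In the 5 control arrays at 48 h, FJU.7.C1 read 7.25, -2.38, 4.43, 3.0 and 2.89, while FJU.7.C22 read 5.47, -1.92, 4.24, 2.88 and 2.80. Both probes ranked these 5 arrays in the same order. In the exposed arrays at 48 h, FJU.7.C1 read 3.12, 1.21, 8.15, 5.06 and 5.32, and FJU.7.C22 read 3.99, 1.37, 7.52, 4.03 and 4.49. The groups overlapped for both. Over 28 arrays r was 0.93 and Spearman's rho 0.89, and r was 0.93 without the doubtful arrays. FJU.7.C13, at r of 0.55 and 0.59 with FJU.7.C1 and FJU.7.C22, moved over a narrower span, from -1.16 to 1.89. FJU.7.C19, detected on 15 arrays, had r of 0.39 to 0.43 with the rest.

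In FJU.146 the bright contigs FJU.146.C6, FJU.146.C8 and FJU.146.C14 had pairwise r of 0.73 to 0.86, and of 0.63 to 0.81 without the doubtful arrays. This likeness was not particular to the cluster. Depending on the pair, 26 to 113 of 7833 contigs of other clusters had a higher r with one of its contigs. The highest such r was 0.97 for FJU.146.C14. FJU.146.C8 ran from 5.42 to 8.44 in the control arrays, with a median of 6.98, and from 5.76 to 9.08 in the exposed arrays, with a median of 6.94. FJU.146.C14 ran from 8.47 to 10.5 in the control arrays and from 8.42 to 11.2 in the exposed arrays. Exposed 48 h replicate 1, a doubtful array, was the highest array for all 3 contigs. It was also the highest for the bright members FJU.610.C4, FJU.1553.C9, FJU.846.C1, FJU.147.C2 and FJU.541.C6 of other clusters. For FJU.295.C2, at a mean signal of 7.24, control 48 h replicate 3 was the highest instead. The 4 dimmer members were less alike. FJU.146.C5 had r of 0.49 with FJU.146.C14, 0.31 with FJU.146.C8 and 0.30 with FJU.146.C6. FJU.146.C4 and FJU.146.C9 had 0.04 and 0.19 with FJU.146.C14, which became 0.44 and 0.41 without the doubtful arrays. FJU.146.C18 had r of -0.31 with FJU.146.C8 and -0.12 with FJU.146.C14.

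FJU.4411 had 3 of its 6 pairs at 0.5 or more. FJU.4411.C2 and FJU.4411.C3 correlated at 0.76, FJU.4411.C4 and FJU.4411.C5 at 0.72, and FJU.4411.C2 and FJU.4411.C4 at 0.58. For FJU.4411.C3 no contig of another cluster had a higher r than FJU.4411.C2 among 7836 compared. That was so for 1 of the 117 members with a value on all arrays. In FJU.1037, FJU.1037.C5 and FJU.1037.C13, both read from _ms probes, correlated at 0.84. That pair stood at 0.48 in the control arrays, 0.89 in the exposed arrays and 0.71 without the doubtful arrays.

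A member's best partner in its own cluster had a median r of 0.41. The best of all other clusters had a median of 0.80, but it was picked from about 7836 contigs and the former from 3 to 8. For the median member, 10.6% of the other clusters' contigs correlated more highly than the best partner in the cluster. For 20 of the 117 that share was 1% or less. Being the best of 3 to 8 lowers this share by itself. No expected value was worked out, so these figures are descriptions.

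The clearest case of likeness across clusters involved FJU.7.C1, FJU.7.C22, FJU.147.C9 and FJU.12.C2. They were picked after their values were seen, as those of the most variable members listed above that varied together. The others of that list, FJU.541.C8, FJU.146.C9 and FJU.541.C11, had r of only 0.07, 0.11 and 0.23 with FJU.7.C1. FJU.7.C1 correlated at 0.98 with FJU.147.C9 and at 0.94 with FJU.12.C2, which was as high as with FJU.7.C22 of its own cluster. FJU.147.C9 read 8.64, 0.22, 6.62, 5.37 and 4.76 in the control arrays at 48 h, and FJU.12.C2 read 5.63, -1.95, 4.19, 3.18 and 2.18. Replicate 1 was the highest and replicate 2 the lowest array of that group for all 4 contigs. The r of FJU.7.C1 with FJU.147.C9 was 0.99 in the control arrays and 0.98 in the exposed arrays. Among 7839 other detected contigs, 71 in 68 clusters had an r of 0.9 or more with FJU.7.C1, and 3 of them were members. Those 71 had a median within-group standard deviation of 2.10 log2 units. FJU.147.C9 was in turn close to FJU.147.C16 (r of 0.83), while FJU.147.C2 and FJU.147.C12 had r of -0.21 and -0.33 with it.

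Opposite members were found in 7 clusters, with 10 pairs at -0.5 or less. The 5th percentile of r was -0.44 for the member pairs and -0.48 for the pairs from different clusters. By this percentile the negative end of r reached no lower inside clusters than between them. The share of pairs from different clusters at -0.5 or less was not counted. Clusters of 2 contigs had 15 of 729 pairs at -0.5 or less, and clusters of 3 had 5 of 224, against 10 of 277 member pairs. The pairs below are descriptions. In FJU.846, FJU.846.C9 and FJU.846.C10 had r of -0.76. FJU.846.C9 was lowest, at -0.59, on exposed 72 h replicate 4, where FJU.846.C10 was highest, at 4.33. In the control arrays FJU.846.C9 ran only from 0.29 to 1.11 and FJU.846.C10 from 0.27 to 1.85. Without the doubtful arrays r was -0.59.

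In FJU.610, FJU.610.C2 and FJU.610.C17 had r of -0.75, and -0.68 without the doubtful arrays. FJU.610.C2, tagged 1rc and detected on 23 arrays, ran from -4.54 to -2.64 in the control arrays and from -6.18 to -2.64 in the exposed arrays. FJU.610.C17, tagged 1, ran from -0.02 to 1.94 and from 0.42 to 3.18. Control 24 h replicate 4 was the highest control array for FJU.610.C2 and the lowest for FJU.610.C17. Exposed 48 h replicate 1 was the lowest exposed array for the former and the highest for the latter. In FJU.1553, FJU.1553.C3 and FJU.1553.C6 had r of -0.68, and FJU.1553.C3 had -0.59 with FJU.1553.C9. FJU.12.C16 and FJU.12.C18 had -0.67, FJU.582.C4 and FJU.582.C5 had -0.55, and FJU.846.C1 and FJU.846.C4 had -0.58. Exposed 24 h replicate 5 was the highest array for FJU.12.C16, at 2.175, and the lowest for FJU.12.C18, at -5.33. In the control arrays no pair of FJU.12 had an r below -0.44.

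The remaining 3 opposite pairs had r no lower than -0.19 in the control arrays and no lower than -0.35 without the doubtful arrays. FJU.487.C11 and FJU.487.C19 had r of -0.71 over 28 arrays, with -0.02 in the control arrays, -0.82 in the exposed arrays and -0.26 without the doubtful arrays. FJU.487.C8 and FJU.487.C19 had -0.56, with 0.05 in the control arrays and -0.27 without the doubtful arrays. FJU.147.C12 and FJU.147.C16 had -0.54, with -0.19 in the control arrays and -0.35 without the doubtful arrays.

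Whether such pairs held beyond the arrays that picked them was tested once. The 5 clusters with the highest median r over the 14 control arrays each gave their highest pair. The 5 with the most negative pair gave that pair. These 10 pairs were then tested over the 14 exposed arrays by permuting arrays within each time, two-sided, with adjustment by Benjamini-Hochberg over the 10.

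Of the 10 pairs, 4 passed, each in the direction of the control arrays. No pairs from different clusters were picked and tested in the same way. The passes therefore describe these pairs and cannot show an effect of sharing a cluster. FJU.7.C1 and FJU.147.C9, of different clusters, had r of 0.99 in the control arrays and 0.98 in the exposed arrays, as given above. FJU.7.C1 and FJU.7.C22 had r of 0.95 in the control arrays and 0.92 in the exposed arrays (rho 0.88, permutation p = 7e-05, adjusted p = 0.0007). FJU.146.C8 and FJU.146.C14 had 0.82 and 0.89 (rho 0.79, permutation p = 0.00164, adjusted p = 0.0082). FJU.4411.C4 and FJU.4411.C5 had 0.64 and 0.75 (rho 0.61, permutation p = 0.0157, adjusted p = 0.0393). FJU.610.C2 and FJU.610.C17 had -0.71 and -0.80 (rho -0.68, permutation p = 0.00491, adjusted p = 0.0164). By rho, the adjusted permutation p was 0.0054, 0.0138, 0.0948 and 0.0409 for these pairs in turn, so that of FJU.4411 did not pass. When the 2 arrays farthest from the median of the first contig were left out, r was 0.91, 0.63, 0.51 and -0.53. Without the 3 doubtful arrays, the adjusted permutation p was 0.0346 for the FJU.7 pair, 0.0677 for FJU.146, 0.183 for FJU.4411 and 0.127 for FJU.610, over 11 arrays. The pair of FJU.7 passed under each of the 6 alternatives run and with each exposed array left out. The pair of FJU.146 passed with each exposed array left out and under 3 of the 6 alternatives. With quantile normalization its r was 0.29 (adjusted permutation p = 0.45), and in the authors' deposited table it was 0.67 (adjusted permutation p = 0.0918). The pair of FJU.610 passed under 1 of the 6 alternatives, the slide block. Its r was -0.34 with quantile normalization (adjusted permutation p = 0.472), -0.36 with normexp (0.245), -0.58 with median scaling (0.144) and -0.61 in the authors' deposited table (0.091). It had an adjusted permutation p of 0.0671 without exposed 48 h replicate 1, where r was -0.60, and of 0.0535 without exposed 72 h replicate 3. The pair of FJU.4411 passed under 2 of the 6 alternatives, median scaling and the slide block. Its r was 0.65 with quantile normalization (adjusted permutation p = 0.054), 0.64 with normexp (0.0653) and 0.73 in the authors' deposited table (0.0547). It passed in 6 of 14 omissions of an exposed array. Leaving out exposed 48 h replicate 3 gave an adjusted permutation p of 0.197, and leaving out exposed 72 h replicate 4 gave 0.162. It was 0.0535 to 0.0579 without exposed 24 h replicate 3, exposed 48 h replicates 2 or 4, or exposed 72 h replicates 1, 2 or 3.

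The other 6 pairs did not pass. FJU.846.C9 and FJU.846.C10 had r of -0.72 in the control arrays and -0.78 in the exposed arrays (permutation p = 0.0457, adjusted p = 0.0762), which became -0.34 without the 2 farthest arrays and -0.38 without exposed 72 h replicate 4 alone. FJU.1553.C3 and FJU.1553.C6 had -0.66 and -0.68 (permutation p = 0.0276, adjusted p = 0.0552), which became -0.36. FJU.1387.C16 and FJU.1387.C25 had -0.65 and -0.20, with an adjusted permutation p of 0.607. FJU.3071.C4 and FJU.3071.C12 had 0.58 and 0.13 (adjusted permutation p = 0.766), and FJU.1037.C3 and FJU.1037.C12 had 0.58 and -0.08 (adjusted permutation p = 0.783). FJU.146.C9 and FJU.146.C18 changed sign, from -0.68 to 0.35 (adjusted permutation p = 0.331), and this change was not tested. In the control arrays FJU.146.C9 ran from -2.82 to 3.41 and FJU.146.C18 from -0.87 to 0.80. In the exposed arrays they ran from -4.93 to 3.55 and from -1.96 to 0.94.

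**Figure D3:**
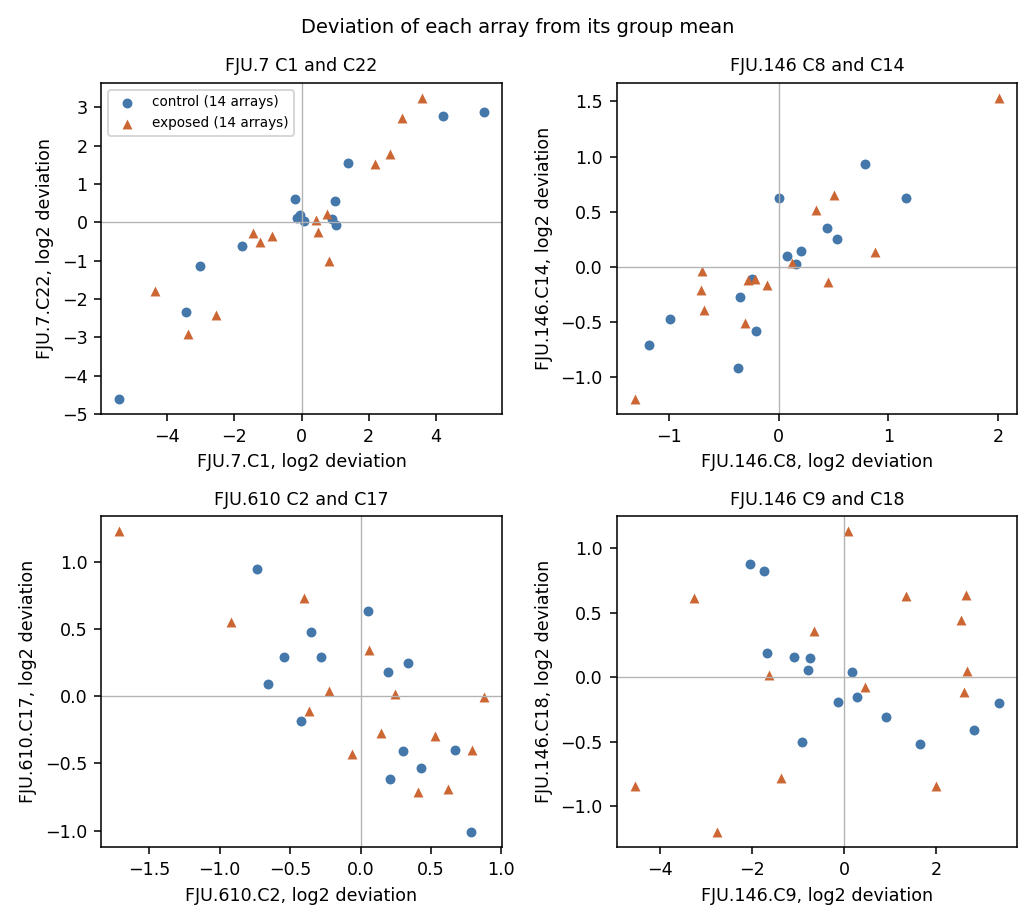
Deviation of each array from its group mean, in log2 units, for the 2 contigs of a pair (x and y axes) in 4 of the tested pairs. Circles are the 14 control arrays and triangles the 14 exposed arrays. FJU.7 C1 and C22 rise together on both kinds of array, FJU.610 C2 and C17 move in opposite directions, and FJU.146 C9 and C18 have r of -0.68 in the control arrays and 0.35 in the exposed arrays.

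The 48 h arrays of scan day 1 and the other arrays gave r of the same sign for the pairs that passed. Both sets hold control arrays that chose the pairs and exposed arrays in which the pairs passed. A like sign was therefore largely fixed by the choice, and these values are descriptions. Over the 8 arrays of scan day 1, r was 0.98 for the FJU.7 pair, 0.99 for FJU.146, 0.76 for FJU.4411 and -0.85 for FJU.610. Over the 20 arrays of scan day 2 it was 0.91, 0.70, 0.70 and -0.78. A slide held 2 to 4 exposed arrays, too few for a value within each slide. With the slide as a block, 6 of the 10 pairs passed.

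Across all 277 pairs, r in the control arrays and r in the exposed arrays were only loosely alike, with a correlation of 0.36 over pairs that share contigs. Of the 34 pairs at 0.5 or more in the control arrays, 16 were so in the exposed arrays and 7 were negative there. Of the 8 pairs at -0.5 or less in the control arrays, 5 were so in the exposed arrays and 1 was positive. The same counts were not made for pairs from different clusters, so these are descriptions. In the exposed arrays 15.2% of all member pairs and 12.2% of pairs from different clusters reached 0.5.

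**Figure D4:**
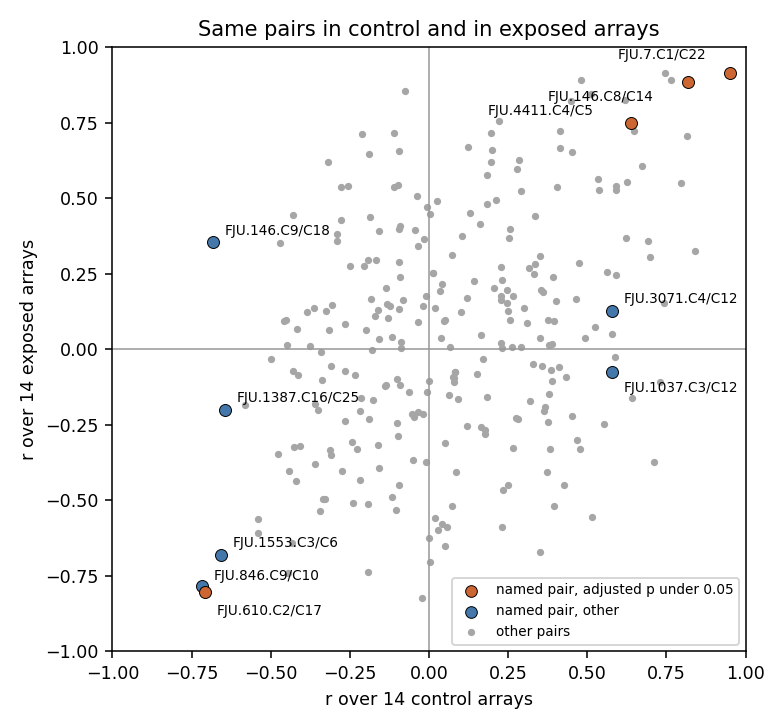
Pearson r of each of the 277 member pairs over the 14 control arrays (x axis) and over the 14 exposed arrays (y axis), group means removed. The 10 named pairs are outlined and labelled, orange where the adjusted permutation p in the exposed arrays was under 0.05 (4 pairs). FJU.7.C1/C22 lies at 0.95 and 0.92, and FJU.610.C2/C17 at -0.71 and -0.80.

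Over the 28 arrays, the median r was near 0 in 4 of the 5 largest clusters. In FJU.582 the median r over 36 pairs was 0.01, 18 pairs were negative and none reached 0.5. Its highest pair, FJU.582.C5 and FJU.582.C33, stood at 0.48. FJU.1387 had a median of -0.01, with 18 of 36 pairs negative. Its median was 0.21 in the control arrays, where its highest pair stood at 0.84, and -0.07 in the exposed arrays. Its pair FJU.1387.C25 and FJU.1387.C26, at 0.58, was its highest over 28 arrays, and stood at 0.20 in the control arrays and 0.40 without the doubtful arrays. FJU.610 had a median of -0.04, with 15 of 28 pairs negative, and FJU.610.C18 and FJU.610.C19 at 0.60, which became 0.23 without the doubtful arrays. FJU.487 had a median of 0.08, with 8 of 21 pairs negative, and FJU.487.C6 and FJU.487.C11 at 0.62, which became 0.19 without them. FJU.146 had a higher median over the 28 arrays, 0.19, or 0.41 without the doubtful arrays, and 4 of 21 pairs negative. In the control arrays its median was 0.29, not far from that of FJU.1387.

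The second question was whether these contigs differed between the phenanthrene-exposed and the control arrays. The 6 group means of all 11492 tested probes were fitted together with limma, and p-values were adjusted over all of them. No member passed an adjusted p of 0.05 at any time or in the mean of the 3 times. The share of all tested probes that passed was 0 in each of these comparisons as well. At an unadjusted p under 0.05, 1 member passed at 24 h, against 2.45% of all tested probes. At 48 h 4 members did, or 3.31%, against 4.25%. At 72 h 5 members did, or 4.13%, against 5.26%, and in the mean of the times 0 did, against 4.79%. The members' shares were thus no higher than the background in any of these comparisons of exposed with control arrays. For the interaction of agent and time, limma's F test passed for 0 members and 0 of all tested probes after adjustment. Before it, 5 members passed, or 4.13%, against 3.41% of all tested probes.

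At 24 h the 2 members with the smallest p were FJU.487.C7 and FJU.1237.C5. FJU.487.C7 read -1.87, -1.69, -1.85, -1.14 and -4.54 in the exposed arrays and -1.53, -1.85, -0.96 and 1.83 in the control arrays. One low exposed and one high control array stood apart, and the groups overlapped. The difference was -1.59 ± 0.73 (SE, limma, unadjusted p = 0.0381, adjusted p = 0.999). FJU.1237.C5 averaged -2.97 ± 0.88 (SD, n = 5) in the exposed arrays and -2.21 ± 0.60 (SD, n = 4) in the control arrays, and the groups overlapped (limma adjusted p = 0.999).

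At 48 h these were FJU.1387.C29 and FJU.582.C5. FJU.1387.C29 read -2.32, -1.64, -1.22, -1.69 and -1.78 in the exposed arrays and -1.26, -0.78, -0.95, -0.45 and -0.52 in the control arrays. Only the highest exposed and the lowest control array overlapped. The difference was -0.94 ± 0.36 (SE, limma, unadjusted p = 0.0142, adjusted p = 0.953). FJU.582.C5 read 0.94, 0.12, 1.46, 1.02 and 0.03 in the exposed arrays and 0.88, -0.27, -0.73, -0.58 and -0.28 in the control arrays. Control replicate 1 lay among the exposed values and the other 4 control arrays lay below them. The difference was 0.91 ± 0.36 (SE, limma, unadjusted p = 0.0172, adjusted p = 0.953).

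At 72 h these were FJU.610.C10 and FJU.81.C3. FJU.610.C10 read 0.88, 0.55, 0.26 and -0.67 in the exposed arrays and 1.29, 0.84, 1.94, 0.66 and 1.39 in the control arrays. The groups overlapped, and the lowest value was that of the doubtful exposed replicate 4. The difference was -0.97 ± 0.33 (SE, limma, unadjusted p = 0.00752, adjusted p = 0.893), and -0.66 without the doubtful arrays. FJU.81.C3 read -2.64, -3.31, -2.85 and -2.63 in the exposed arrays and -4.11, -3.34, -4.08, -3.60 and -4.15 in the control arrays. The groups did not overlap, by a narrow margin. The difference was 1.0 ± 0.35 (SE, limma, unadjusted p = 0.00814, adjusted p = 0.893) and was 0.20 with the normexp background correction.

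In the mean over the times these were FJU.1037.C5 and FJU.5864.C4, at -0.64 ± 0.35 and -0.87 ± 0.48 (SE, limma, adjusted p = 0.836 for both). FJU.1037.C5 averaged -4.06, -4.17 and -3.85 in the exposed arrays at 24, 48 and 72 h and -3.29, -3.34 and -3.51 in the control arrays. Its exposed arrays spread from -6.52 to -2.78 and its control arrays from -4.26 to -2.69. FJU.5864.C4 averaged -1.31, -1.52 and -1.93 in the exposed arrays and -0.52, -0.33 and -1.29 in the control arrays. Its lowest value, -5.67, was that of exposed 72 h replicate 4, and without the doubtful arrays the 2 differences were -0.29 and -0.24. The 8 named differences kept their sign under each of the 38 other settings fitted, which include leaving out each array in turn. Many of these settings could not have changed a sign. A difference at a single time did not depend on omitted arrays of other times. Settings that changed only which probes were tested or counted left each difference as it was. The members had also been picked by their p-value, so the kept signs are a description only.

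Contigs of a cluster differed in the same direction about as often as contigs of different clusters. In the mean of the times 53 members, or 43.8%, were higher in the exposed arrays, against 40.6% of all tested probes, and 68 were lower. The members' median difference was -0.05 log2 units against -0.07 over all tested probes. In 20 clusters the members differed in sign. In FJU.295, FJU.1037, FJU.2069 and FJU.3562 all 4 were lower, and in none were all higher. No expected number of such clusters was worked out, and most of all tested probes were lower as well. With arrays scaled to their median, 83 members were higher, 4 clusters had all members higher and 0 had all lower. That scaling moved the median of all tested probes by 0.13 log2 units, to 0.06. The share of same-cluster pairs with differences of the same sign was 52.3%, against 50.7% of pairs from different clusters. Within a pair the differences lay a median of 0.29 log2 units apart, against 0.31. At 24, 48 and 72 h the same-sign shares were 50.9%, 55.6% and 45.1%, against 50.45%, 50.16% and 50.08% of pairs from different clusters.

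The largest difference in the mean of the times was that of FJU.7.C1, at 1.69 log2 units with a 95% interval from -0.41 to 3.78. FJU.7.C22 stood at 0.98, with an interval from -0.50 to 2.47. FJU.147.C9 stood at 1.04, with an interval from -0.78 to 2.87. The 3 contigs varied together within groups, as described above, so that their differences are not separate observations. For 82 members, or 67.8%, the 95% interval of the mean difference lay within a 2-fold change either way, against 62.1% of all tested probes. The tested probes had met a looser detection limit than the members, so these shares are not like for like.

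**Figure D5:**
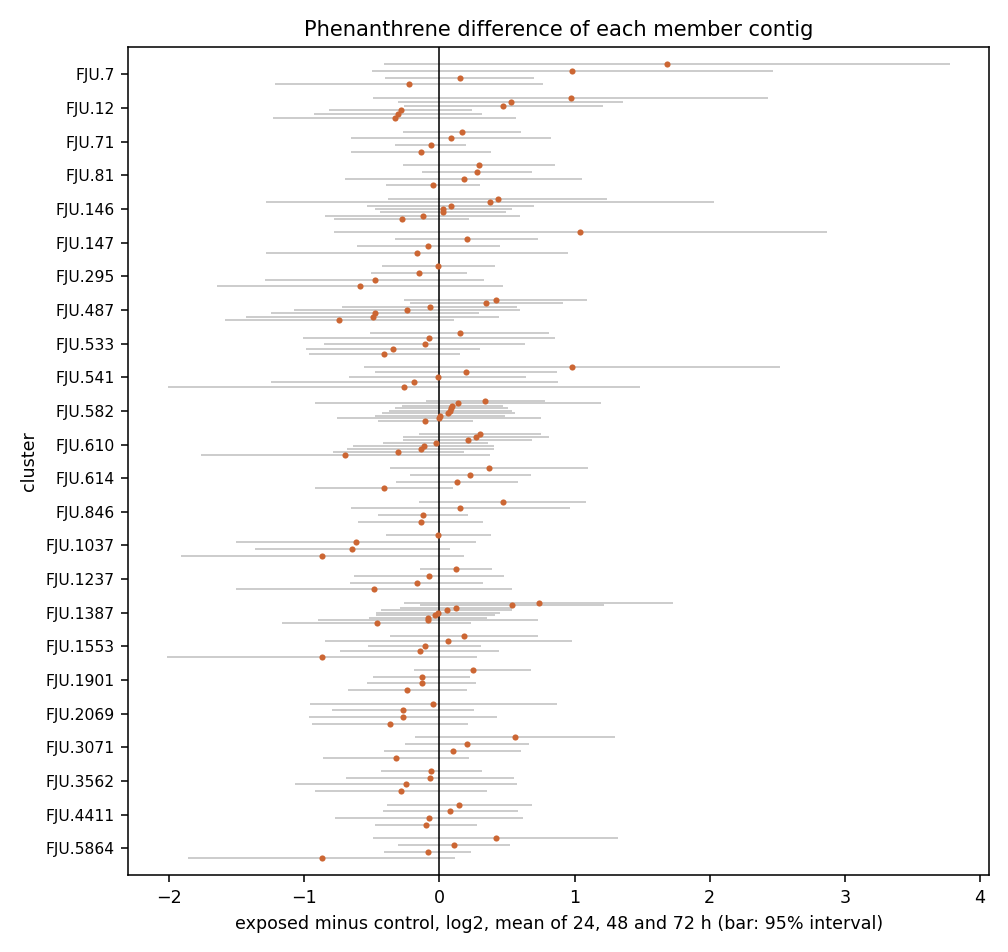
Exposed minus control difference of each of the 121 member contigs (points) in log2 units, mean of 24, 48 and 72 h (x axis), by cluster (y axis). Bars are 95% intervals from limma. Points of a cluster lie on both sides of 0 in 20 of 24 clusters, and the largest, FJU.7.C1 at 1.69, has an interval from -0.41 to 3.78.

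The control arrays also allowed a comparison of the times without exposure. All control arrays at 48 h except replicate 1 were scanned on day 1, on slides without control arrays of the other times. A difference between 48 h and the other times therefore cannot be told apart from slide or scan day. In limma's F test over the 3 control times, 0 members and 0 of all tested probes passed after adjustment, while with array weights 6 of all tested probes did and again 0 members. Before adjustment 1 member passed, against 4.06% of all tested probes. It was FJU.3071.C12, which read -0.49, -0.62, -1.25 and 0.08 in the 24 h group. In the 48 h group it read -2.70, -1.10, -1.44, -1.52 and -2.39. The readings of the 72 h group were -0.12, -1.92, -1.56, -1.14 and -1.65. Values at 48 h were lowest on average and overlapped with those of both other times. The differences from 24 h were -1.26 at 48 h and -0.71 at 72 h (limma unadjusted p = 0.04, adjusted p = 0.992).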

How the data were processed

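Liver RNA was measured on 28 one-colour arrays. The deposited scanner tables hold linear fluorescence intensity, background-corrected by Agilent Feature Extraction 10.7.1.1, per the file headers. A table of log2 values by the authors, normalized in a way no source used here states, has 1 column that belongs to no sample and served as an alternative only. From every array's log2 processed signals their 75th percentile was subtracted. Spots marked as non-uniform or population outliers were left out (4 in the members). Probes that 3 or more arrays of some group showed well above background were fitted in 6 group means (limma 3.58.1, R version 4.3.3; 22 residual degrees of freedom; Benjamini-Hochberg at 0.05). Correlations used numpy 2.4.6 and scipy 1.17.1, on deviations from group means. Permutations numbered 100000 and were drawn within each time. The code was tested on simulated data.

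Precision is limited by how many arrays there are. Replicate numbers follow the order of deposit and pair nothing.

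The rule for naming took the 5 largest clusters and the 10 tested pairs. It added, for each phenanthrene comparison, the 2 members with the smallest p, and 1 for the control times. The members, the lists and the 3 doubtful arrays were chosen with earlier results of these data known. Every pair of different clusters served as background. Alternatives were quantile and median scaling, normexp with an offset of 50 on median spot signals, the slide as a block, array weights, the authors' table, stricter detection, Spearman's rho, no centring, removal of the first principal component, control or exposed arrays alone, and leaving out arrays. The split by scan day was added after seeing the data.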

Additional observations from a re-analysis of the deposited data

Results flagged for a closer look

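In 4 of 27 groups of 4 or 5 arrays examined for the members named by their p-value, 1 array stood apart from the others by Dixon's criterion at 95%. Chance marks about 1 in 20 such groups. FJU.487.C7 read -4.54 on the fifth exposed array at 24 h, where the other 4 lay from -1.87 to -1.14. FJU.582.C5 read 0.88 on control 48 h replicate 1, against -0.73 to -0.27. FJU.1037.C5 read -5.83 on exposed 72 h replicate 4, against -3.36 to -2.93, and FJU.5864.C4 read -5.67 on that same array, against -1.01 to -0.31. That array carried 498 non-uniform spots and the highest 75th percentile of the series, 1253 intensity units. Its part in these low values was not tested.

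Among the 30 probes of the member clusters that missed the detection limit, FJU.610.C20 was well above background on 3 exposed arrays and on no control array. For comparison, the left-out probes were above background on up to 6 exposed and up to 8 control arrays, and 4 were so on none. Among 2980 contig probes that missed the limit on the whole array, 19, or 0.638%, were above background on 3 or more exposed arrays and no control array. The reverse held for 59, or 1.98%.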

How the results depend on the processing

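No paired analysis was possible because the replicate numbers only follow the order of deposit. The median r of the member pairs stayed between 0.01 and 0.11 over the 14 alternatives, and between 0.03 and 0.07 with each array left out. For scan days 1 and 2, an alternative chosen after seeing the data, it was 0.10 and 0.04. No member passed adjustment in any of the 5 limma comparisons under any alternative. At an unadjusted p under 0.05, the members' counts were highest with array weights at 24 h (7, or 5.79%, against 6.86% of all tested probes), in the mean (6, or 4.96%, against 7.23%) and over the control times (16, or 13.2%, against 17.2%). At 48 h the count was highest without exposed 48 h replicate 2 (7, or 5.79%, against 7.38%). At 72 h it was 9, or 7.44%, against 7.31%, without exposed 72 h replicate 1, and also 9 without replicate 3. The share of same-cluster pairs with differences of one sign, 52.3%, became 61.73% with median scaling, against 52.7% of pairs from different clusters. It lay between 45.85% and 54.51% with an array left out, lowest without exposed 72 h replicate 3. The number of tested pairs that passed, 4 of 10, became 1 with quantile normalization, 2 with normexp, 1 in the authors' deposited table and 1 without the doubtful arrays. It was 4 with median scaling, where FJU.1553.C3 and C6 passed in place of the FJU.610 pair. With the slide as a block it was 6, the 4 and the pairs FJU.846.C9 and C10 and FJU.1553.C3 and C6. That block leaves fewer free residuals than the permutation assumes, so its p-values are approximate. With an exposed array left out the number ran from 2 to 4, and 2 was reached without exposed 72 h replicate 3. The cause of these changes was not tested. Requiring detection on all 28 arrays left 21 members in 5 clusters. Signals near background limit the dim members, since only 58 of 121 were detected on all arrays.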
